A study of Mus musculus with 19 samples.

Results

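The genes described here are the enzymes and transporters of glycolysis and the standard transcriptional targets of the hypoxia response, measured in 19 RNA-seq libraries of mouse embryonic stem (ES) cells and cells derived from them. They were taken by symbol from a list, and no measured value entered that rule, although the list was chosen with earlier results of these data known. Of its 39 symbols, 38 are in the deposited tables of 22756 gene entries. The symbol without an entry is Pkm2, and its gene is present as Pkm, also on the list. Of the 38 members, 24 are enzymes, their regulators or transporters (Slc2a1, Slc2a3, Hk1, Hk2, Gpi1, Pfkl, Pfkm, Pfkp, Pfkfb3, Pfkfb4, Aldoa, Aldoc, Tpi1, Gapdh, Pgk1, Pgam1, Eno1, Eno2, Pkm, Ldha, Ldhb, Slc16a3, Pdk1 and Pdk3) and 14 are hypoxia targets (Bnip3, Bnip3l, Vegfa, Egln3, Ndrg1, P4ha1, P4ha2, Ankrd37, Mxi1, Ddit4, Adm, Higd1a, Kdm3a and Car9).

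All libraries come from the mouse ES cell reporter line Rex1 GFPd2, in which Rex1 (Zfp42), a gene of the naive pluripotent state, drives a destabilised green fluorescent protein (GFP), so that GFP marks naive cells. The cells were differentiated in serum medium, and after 2 days cells lacking both GFP and SSEA1, an antigen on the surface of mouse ES cells that is lost on differentiation, were sorted and cultured up to day 15, some with AICAR. This compound is taken up and phosphorylated, and in that form it acts like AMP and switches on AMPK, a kinase that senses the energy state of the cell. Its dose is not in the labels. The groups are 8 colony lines, each grown from a picked GFP-positive (GFP+) AICAR colony, and 2 sorted lines, grown from sorted GFP+ AICAR cells, both expanded in Lif+2i (the cytokine Lif with inhibitors of Mek and Gsk3). Next come 3 libraries of AICAR GFP+ cells, 1 of AICAR GFP-negative (GFP-) cells and 1 of the whole AICAR culture. The starting points are 1 library each of undifferentiated cells in Lif+2i, day 2 cells, sorted SSEA1-negative GFP-negative day 2 cells, and day 15 cells kept without AICAR. Whether a picked colony was 1 clone, and whether libraries of a group came from separate cultures, is not stated, so the p-values speak for the spread among these libraries alone, and it may be technical. The sorting field of the labels lists the unsorted day 2 library as sorted and the AICAR fractions as unsorted, and the titles were followed. The study followed gene expression under AICAR during differentiation and during return to the naive state.

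Glycolysis splits glucose into pyruvate in the cytosol. Glucose enters through the Slc2a transporters, hexokinases trap it, phosphofructokinase sets the pace of the pathway, and lactate dehydrogenase and the exporter Slc16a3 (MCT4) remove the end product. Hypoxia-inducible factor, made of an oxygen-sensitive alpha subunit and Arnt, binds short elements with the core ACGTG or GCGTG in the promoters of glycolytic genes and of genes for blood vessel growth, collagen processing and mitochondrial clearance. In oxygen, the prolyl hydroxylases of the Egln family tag the alpha subunit for removal through Vhl. Mouse ES cells in the naive state use both glycolysis and mitochondrial respiration.

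The 250 bases before the transcription start are shown for 4 members of large range across the groups, 2 from each class. They were chosen by name and are not the members of largest range. The sequences are from RefSeq on build GRCm38.p6, written 5′ to 3′ on the gene's strand. Capitals mark the letters ACGTG or GCGTG and, for the other strand, CACGT or CACGC. Where both strands match, as in the palindrome CACGTG, 2 overlapping matches were counted.
Slc16a3 at chr11:120948817-120949066, plus strand: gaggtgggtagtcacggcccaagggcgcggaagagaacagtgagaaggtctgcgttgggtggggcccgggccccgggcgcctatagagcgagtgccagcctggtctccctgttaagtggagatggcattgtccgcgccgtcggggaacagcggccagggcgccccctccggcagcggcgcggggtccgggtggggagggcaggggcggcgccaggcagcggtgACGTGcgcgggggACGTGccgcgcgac
Ldha at chr7:46845554-46845803, plus strand: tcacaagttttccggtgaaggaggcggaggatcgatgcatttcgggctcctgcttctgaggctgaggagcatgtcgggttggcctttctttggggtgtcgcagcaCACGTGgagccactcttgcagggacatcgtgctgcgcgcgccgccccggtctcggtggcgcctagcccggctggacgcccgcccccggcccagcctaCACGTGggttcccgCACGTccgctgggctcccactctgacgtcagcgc
P4ha2 at chr11:54100674-54100923, plus strand: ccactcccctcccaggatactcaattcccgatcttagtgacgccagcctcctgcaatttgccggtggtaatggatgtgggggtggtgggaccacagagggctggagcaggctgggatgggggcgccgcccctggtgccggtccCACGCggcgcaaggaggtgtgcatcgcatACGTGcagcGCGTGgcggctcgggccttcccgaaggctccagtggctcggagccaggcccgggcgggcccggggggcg
Bnip3 at chr7:138909507-138909756, minus strand: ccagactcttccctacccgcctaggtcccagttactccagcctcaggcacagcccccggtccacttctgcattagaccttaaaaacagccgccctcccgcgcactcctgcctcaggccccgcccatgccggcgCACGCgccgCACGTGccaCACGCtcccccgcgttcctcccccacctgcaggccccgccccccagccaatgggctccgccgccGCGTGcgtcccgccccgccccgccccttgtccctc
Slc16a3 holds 2 matches, starting at positions -27 and -14 from the transcription start. Ldha holds 5, of which 4 lie in the pair of palindromes CACGTG. P4ha2 holds 3 and Bnip3 holds 5. Ldha has 2 windows, and the one with the most matches is shown. No member holds more than 5 in a window. Adm and Vegfa, the hypoxia targets of largest range, hold at most 2. Promoter windows were found for 35 of the 38 members, and not for Slc2a3, Bnip3l and Ndrg1. At least 1 match was present in a window of 32 of these 35 genes (91.4%), against 41.5% of 27025 genes in the reference. The 12 hypoxia targets with a window all held one, as did 20 of 23 enzymes and transporters (87%). The exceptions were Gpi1, Tpi1 and Eno2. At least 3 matches stood in a window of 10 of the 35 members (28.6%), against 7.54% of all genes. Base composition was not matched, and a match is a run of letters, not a shown binding site.

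AICAR GFP+ replicates 1 and 2 hold 12751260 and 14233421 reads in genes, and the other 17 libraries 5771671 to 8262357, so those 2 have less counting error. The file headers place those 2 libraries in a second sequencing project and all others, AICAR GFP+ replicate 3 included, in the first. Levels below are read counts scaled to a common total of 1000000 (CPM) after TMM scaling over the 19 libraries. The sum over 10 markers of naive ES cells was 4424 to 4792 CPM in the lines, 2697 to 3877 in AICAR GFP+ cells, 1022 in AICAR GFP- cells, 1487 in the whole AICAR culture, 4994 in undifferentiated cells and 109 at day 15. All 10 were read in each line. The sum over 8 mesenchyme markers was 20.4 to 153 CPM in the colony lines, 825 in AICAR GFP- cells, 8079 in the whole AICAR culture, 31.4 in undifferentiated cells and 35405 at day 15. In bulk RNA, fewer cells of a type and less RNA per cell cannot be told apart.

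AICAR GFP+ replicate 3 stands apart from replicates 1 and 2, which bears on every comparison of that group. Among members with at least 50 reads, replicate 3 was more than 2-fold above both other replicates in 12 of 33 (36.4%) and below neither by that much, against 4.37% above and 1.62% below among 10876 genes. Ldha, which makes lactate from pyruvate, was at 92, 151 and 682 CPM in replicates 1, 2 and 3, and Tpi1, triose phosphate isomerase, was at 49.2, 45.2 and 195 CPM. Bnip3, a mitophagy receptor, was at 5.19, 7.72 and 49.6 CPM. P4ha2, a collagen prolyl hydroxylase subunit, was at 6.02, 13 and 148 CPM. Replicate 3 was the highest in each of these 4 genes. Ddit4 (REDD1), an inhibitor of mTORC1 signalling, did not follow that pattern and was at 33.9, 33.2 and 32.7 CPM. The sum over 9 visceral endoderm markers was 127, 123 and 874 CPM in replicates 1, 2 and 3, with at most 1 of them at 0 reads, and that over the 8 mesenchyme markers was 25.4, 34.9 and 223 CPM. The part of these cells, or of the sequencing project, in the level of the members was not tested. Counts of members called in each comparison of this group are therefore given with and without replicate 3.

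Across the groups the classes had different high points, as the plots of levels and of all 38 members show. Day 15 had the highest group mean for 11 of 14 hypoxia targets and for 7 of 24 enzymes and transporters. Day 2 was highest for 7 enzymes and transporters, and AICAR GFP+ cells for 4, Pfkp, Ldhb, Pdk1 and Pfkm. The whole AICAR culture was lowest for 12 of the 24 enzymes and transporters, and the colony lines for 8 of the 14 hypoxia targets. These counts were not taken over all genes, and most groups are 1 library. Whether the pattern is particular to the members was therefore not tested. Summed, the 24 enzymes and transporters took 0.941% of the reads in genes in the whole AICAR culture and 2.06% at day 2, the lowest and the highest of the 19 libraries. The 14 hypoxia targets summed to 377 CPM in AICAR GFP+ replicate 2, the lowest, and 2130 CPM at day 15, the highest. Kdm3a alone gave 198 of the 377 CPM in AICAR GFP+ replicate 2. In the colony lines it gave 338 to 398 CPM, where the sums were 474 to 573 CPM. The low end of the sum thus follows Kdm3a and does not rank the other targets.

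**Figure D1:**
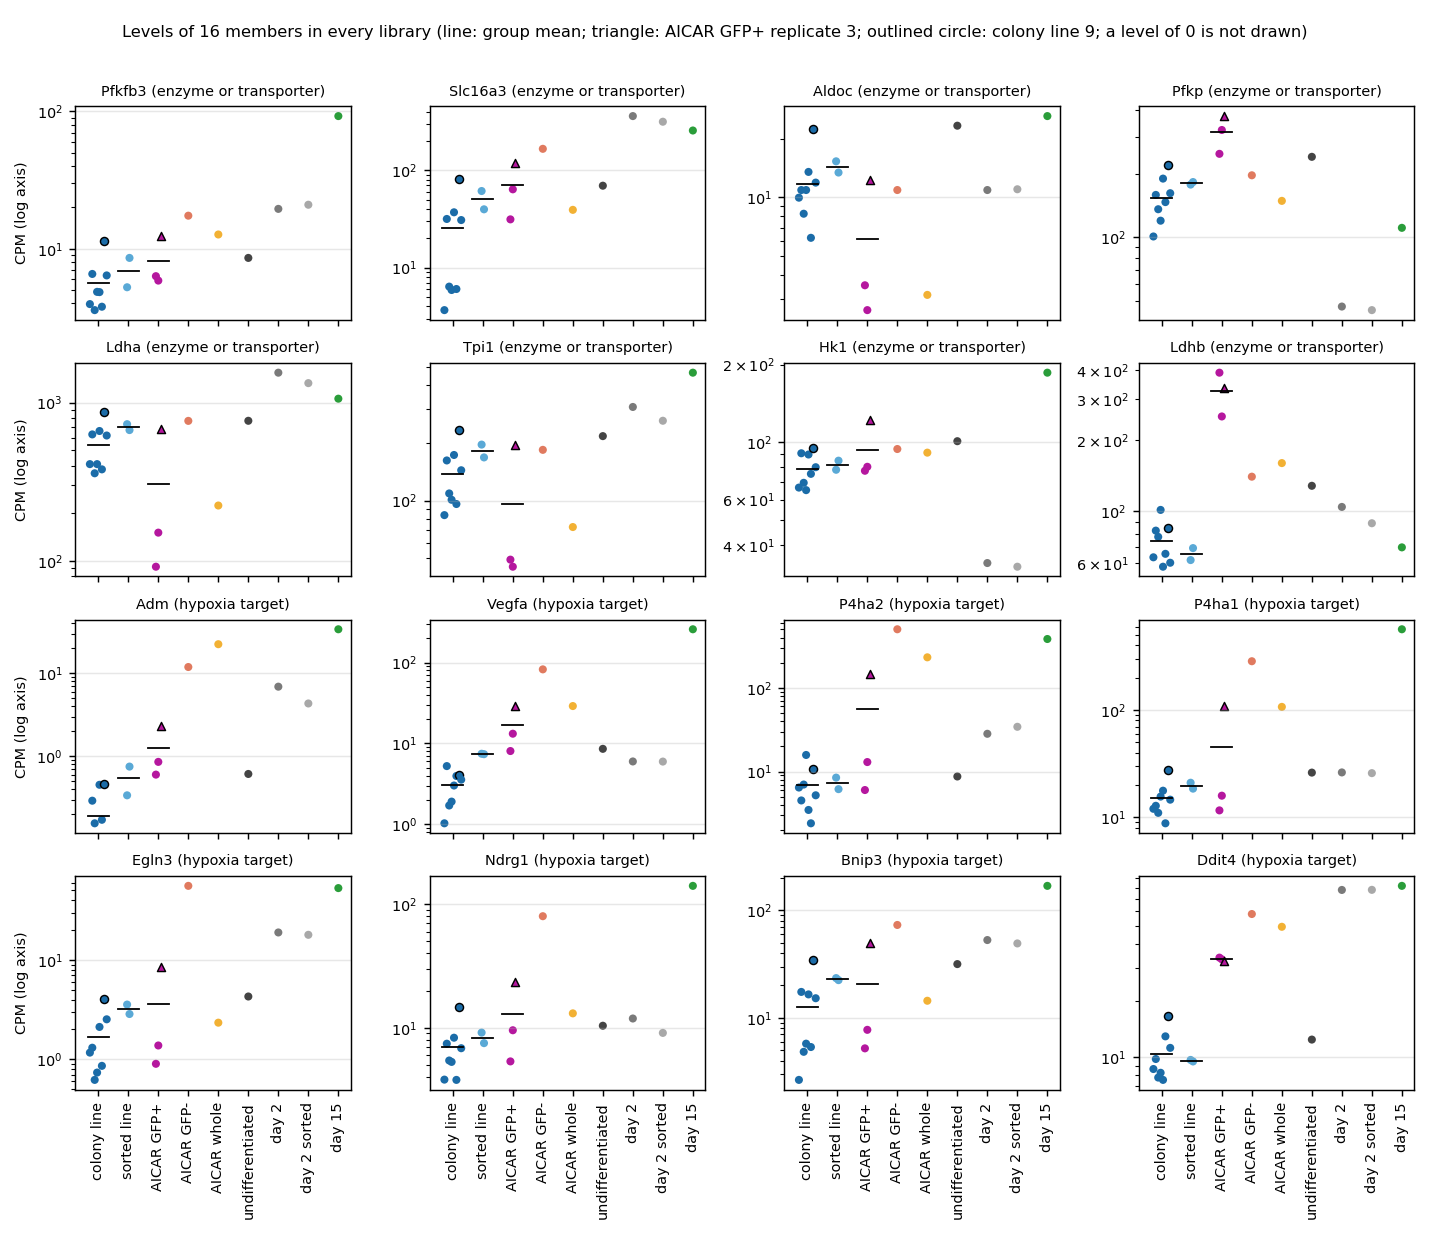
Level in CPM (logarithmic axis) of the 8 enzymes or transporters and the 8 hypoxia targets with the largest ratio between group means; each point is 1 library, the line is the group mean, the triangle is AICAR GFP+ replicate 3 and the outlined circle is colony line 9. Ldhb stands highest in the AICAR GFP+ cells, Slc16a3 at day 2, and Vegfa, P4ha1 and Ndrg1 at day 15.

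**Figure D2:**
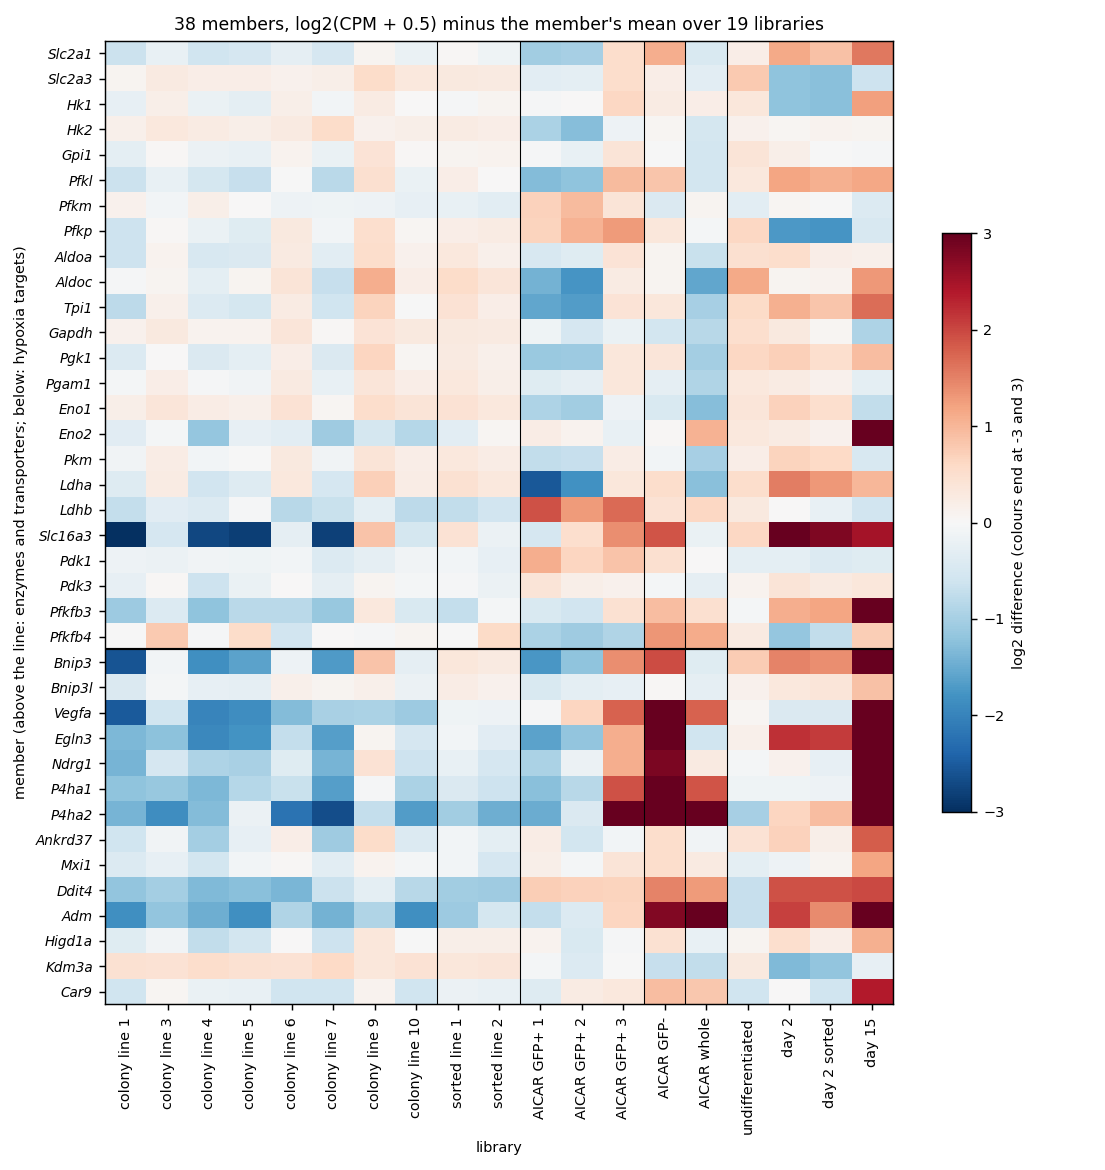
Each row is a member and each column a library; the colour is log2(CPM + 0.5) minus the member's mean over the 19 libraries, in log2 units, with colours ending at -3 and 3. Of the hypoxia targets below the line, 11 of 14 have their highest group mean at day 15, Kdm3a is instead highest in the colony lines, and AICAR GFP+ replicate 3 differs from replicates 1 and 2. The same count over all genes was not taken.

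The comparison of day 2 with undifferentiated cells addresses how the genes move on leaving the naive state. Groups of 1 library give no test, so a difference there is called only past 2-fold where 1 of the libraries holds 50 reads or more for the gene, and has no replicate check. At day 2, Slc16a3, Pfkfb3 and Ldha were more than 2-fold higher than in undifferentiated cells, and Pfkp, Slc2a3, Hk1 and Aldoc more than 2-fold lower. Of 22 enzymes and transporters, 3 were more than 2-fold higher and 4 lower, against 9.32% and 8.89% of 9763 genes. Of 12 hypoxia targets, 4 were higher and 1 was lower.

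Slc16a3, the lactate exporter, was at 69.4 CPM in undifferentiated cells, 360 at day 2, 315 in sorted day 2 cells and 256 at day 15. Ldha was at 768, 1546, 1328 and 1059 CPM in the same order. Pfkfb3, whose product makes the activator of phosphofructokinase, was at 8.58, 19.5, 20.9 and 92.2 CPM. The first pair peaked at day 2, and Pfkfb3 was highest at day 15. Pfkp, the platelet-type phosphofructokinase, was at 241, 47, 45.2 and 111 CPM in this order. Slc2a3, the high-affinity neuronal glucose transporter (GLUT3), was at 782, 199, 192 and 297 CPM. Hk1, the constitutive hexokinase, was at 101, 34.1, 33 and 186 CPM. All 3 were lowest on day 2, and only Hk1 ended above its undifferentiated level. Aldoc, the brain-type aldolase, was at 23.3, 10.9, 11 and 26.1 CPM. The log2 ratio of day 2 to undifferentiated cells was 2.37 for Slc16a3, 1.16 for Pfkfb3 and 1.01 for Ldha, and -2.35 for Pfkp, -1.97 for Slc2a3, -1.56 for Hk1 and -1.07 for Aldoc.

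Among hypoxia targets, Ddit4 was at 12.4 CPM in undifferentiated cells, 77.8 at day 2, 77.9 in sorted day 2 cells and 81.8 at day 15. Adm, the vessel-widening peptide adrenomedullin, was at 0.613, 6.9, 4.33 and 33.9 CPM in this order, and Egln3, a prolyl hydroxylase, at 4.29, 18.9, 17.9 and 52.8 CPM. P4ha2 was at 8.74, 28.3, 34.3 and 384 CPM. The 4 genes were already higher at day 2, with log2 ratios to undifferentiated cells of 2.62 for Ddit4, 3.01 for Adm, 2.07 for Egln3 and 1.66 for P4ha2. Kdm3a, a histone demethylase, was the 1 target lower at day 2, at 325, 105, 117 and 225 CPM in this order. Vegfa, the vessel growth factor, was at 8.58, 5.99, 5.97 and 258 CPM, so its level was high only at day 15 of these 4 libraries.

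No member with enough reads differed past 2-fold between sorted and unsorted day 2 cells. Against undifferentiated cells, the sorted day 2 cells had 2 enzymes and transporters higher and 4 lower of 22, and 3 hypoxia targets higher and 1 lower of 11, beside 10.1% and 9.41% of 9677 genes. Sorted against unsorted day 2 cells, 0 of 33 members passed 2-fold, beside 0.453% of genes higher and 0.105% lower. The largest ratios among members with enough reads were -0.64 for Adm and -0.37 for Ndrg1 on the log2 scale. The labels disagree on whether the first of these libraries was sorted.

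At day 15 without AICAR most hypoxia targets were more than 2-fold higher than in sorted day 2 cells, with a median log2 ratio of 1.71 over the class, beside 0.06 over all genes. Against sorted day 2 cells, 9 of 13 hypoxia targets were higher and 0 were lower, and 5 of 23 enzymes and transporters were higher and 2 lower, beside 28.7% and 21.3% of 11554 genes. Vegfa (5.37), P4ha1 (4.44) and Ndrg1 (3.92) had the largest log2 ratios of day 15 to sorted day 2 cells. P4ha1, another collagen prolyl hydroxylase subunit, was at 26.1 CPM in undifferentiated cells, 26.2 at day 2, 25.8 in sorted day 2 cells and 566 at day 15. Ndrg1, a stress-induced growth inhibitor, was at 10.4, 11.9, 9.1 and 141 CPM in this order. Bnip3 was at 31.6, 52.9, 49.2 and 169 CPM. Each of the 3 was highest at day 15. Eno2, the neuronal enolase, was at 2.61, 2.48, 2.24 and 19.4 CPM, a log2 ratio of 2.98 against sorted day 2 cells, beside 2.49 for Hk1 and 2.13 for Pfkfb3. Eno1, the general enolase, was at 2461, 3094, 2737 and 1140 CPM and Pkm, pyruvate kinase, at 2725, 3769, 3603 and 1703 CPM. These 2 were the members lower at day 15 than in sorted day 2 cells, with log2 ratios of -1.26 and -1.08. Mesenchyme markers summed to 58.6 CPM in sorted day 2 cells and 35405 at day 15. All markers of smooth muscle, visceral endoderm and stratified epithelium with enough reads, and 4 of 5 cardiac ones, were also more than 2-fold higher at day 15. The part of these cells was not tested.

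Against undifferentiated cells, day 15 had 10 of 13 hypoxia targets higher and 0 lower, and 5 enzymes and transporters higher and 4 lower of 23, beside 30.4% and 23% of 11502 genes. P4ha2 (5.42), Adm (5.28) and Vegfa (4.87) led the hypoxia targets on the log2 scale. Pfkfb3 (3.39), Eno2 (2.78) and Slc16a3 (1.88) led the enzymes and transporters that were higher. Gapdh, glyceraldehyde phosphate dehydrogenase, was at 7307 CPM in undifferentiated cells, 6291 at day 2, 5355 in sorted day 2 cells and 2732 at day 15, with a log2 ratio of -1.42 at day 15. Slc2a3 (-1.39), Eno1 and Pfkp (both -1.11) were the others that were lower. The median log2 ratio was 2.69 over the hypoxia targets and -0.05 over the enzymes and transporters, beside 0.05 over all genes. The whole marker list of mesenchyme moved with this comparison, at 35405 CPM at day 15 and 31.4 in undifferentiated cells in sum. All markers of smooth muscle, cardiac muscle, visceral endoderm and stratified epithelium with enough reads were also more than 2-fold higher, and all 10 naive markers were lower. The part of these cells was not tested.

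The whole AICAR culture had lower levels of many members than the day 15 cells without AICAR. Of 23 enzymes and transporters 1 was higher and 10 were lower, and of 13 hypoxia targets 0 were higher and 8 lower, beside 10.1% and 17.2% of 11386 genes. Ldha was at 224 CPM in the whole AICAR culture and 1059 at day 15, and Tpi1 at 72.8 and 465 CPM in the same order. Aldoc was at 3.16 CPM with AICAR and 26.1 without, Pfkfb3 at 12.7 and 92.2, and Slc16a3 at 39.2 and 256, log2 ratios of -2.95, -2.84 and -2.7. Ldhb, the lactate dehydrogenase subunit of heart muscle, went the other way, at 160 CPM with AICAR and 69.9 without (1.19). Egln3 was at 2.34 CPM with AICAR and 52.8 without, Bnip3 at 14.4 and 169, and Ndrg1 at 13.1 and 141, log2 ratios of -4.36, -3.52 and -3.41. The median log2 ratio was -0.62 over enzymes and transporters and -1.29 over hypoxia targets, beside 0.04 over all genes. The mesenchyme marker sum was 8079 CPM with AICAR and 35405 without. In this order, smooth muscle markers summed to 1860 and 3151 CPM, cardiac to 33.7 and 187, and stratified epithelium to 12 and 1230. Sums of visceral endoderm (975 and 355) and naive markers (1487 and 109) went the other way. The part of these cells in the ratios was not tested.

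Fewer members passed 2-fold between AICAR GFP- cells and day 15, a difference between comparisons that was not tested. In AICAR GFP- cells 1 of 23 enzymes and transporters was higher and 4 were lower, and 0 of 13 hypoxia targets were higher and 4 lower, beside 12.2% and 20.8% of 11352 genes. Ldhb was at 140 CPM in the AICAR GFP- cells, against 69.9 at day 15. The enzymes and regulators with the lowest ratios were Eno2 (-3.08), Pfkfb3 (-2.39) and Tpi1 (-1.34). Vegfa was at 82.4 CPM in AICAR GFP- cells and 258 at day 15, a log2 ratio of -1.64, and Adm (-1.49), Ankrd37 (-1.34) and Bnip3 (-1.2) were the other targets that were lower. Egln3, at 55.6 CPM in AICAR GFP- cells and 52.8 at day 15, and P4ha2, at 502 and 384 CPM in that order, were within 2-fold. The median log2 ratio was -0.09 over enzymes and transporters and -0.82 over hypoxia targets, beside 0.06 over all genes. Mesenchyme markers summed to 825 CPM in AICAR GFP- cells and 35405 at day 15. In this order, smooth muscle markers summed to 258 and 3151 CPM, cardiac to 36.8 and 187, and stratified epithelium to 3.8 and 1230. Sums of visceral endoderm (858 and 355) and naive markers (1022 and 109) went the other way. The part of these cells was not tested.

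Against sorted day 2 cells, the AICAR GFP- cells had 3 of 22 enzymes and transporters higher, Pfkp (2.11), Hk1 (1.5) and Slc2a3 (1.44), and 6 of 12 hypoxia targets higher, with 0 members lower, beside 14% higher and 9.67% lower among 10010 genes. P4ha2 (3.86), Vegfa (3.72) and P4ha1 (3.45) had the largest log2 ratios. Mesenchyme markers summed to 825 CPM in AICAR GFP- cells and 58.6 in sorted day 2 cells. In this order, smooth muscle markers summed to 258 and 46.9 CPM, visceral endoderm to 858 and 10.1, and stratified epithelium to 3.8 and 1.34. Sums of naive (1022 and 1822) and cardiac markers (36.8 and 42.7) went the other way. The part of these cells was not tested.

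**Figure D3:**
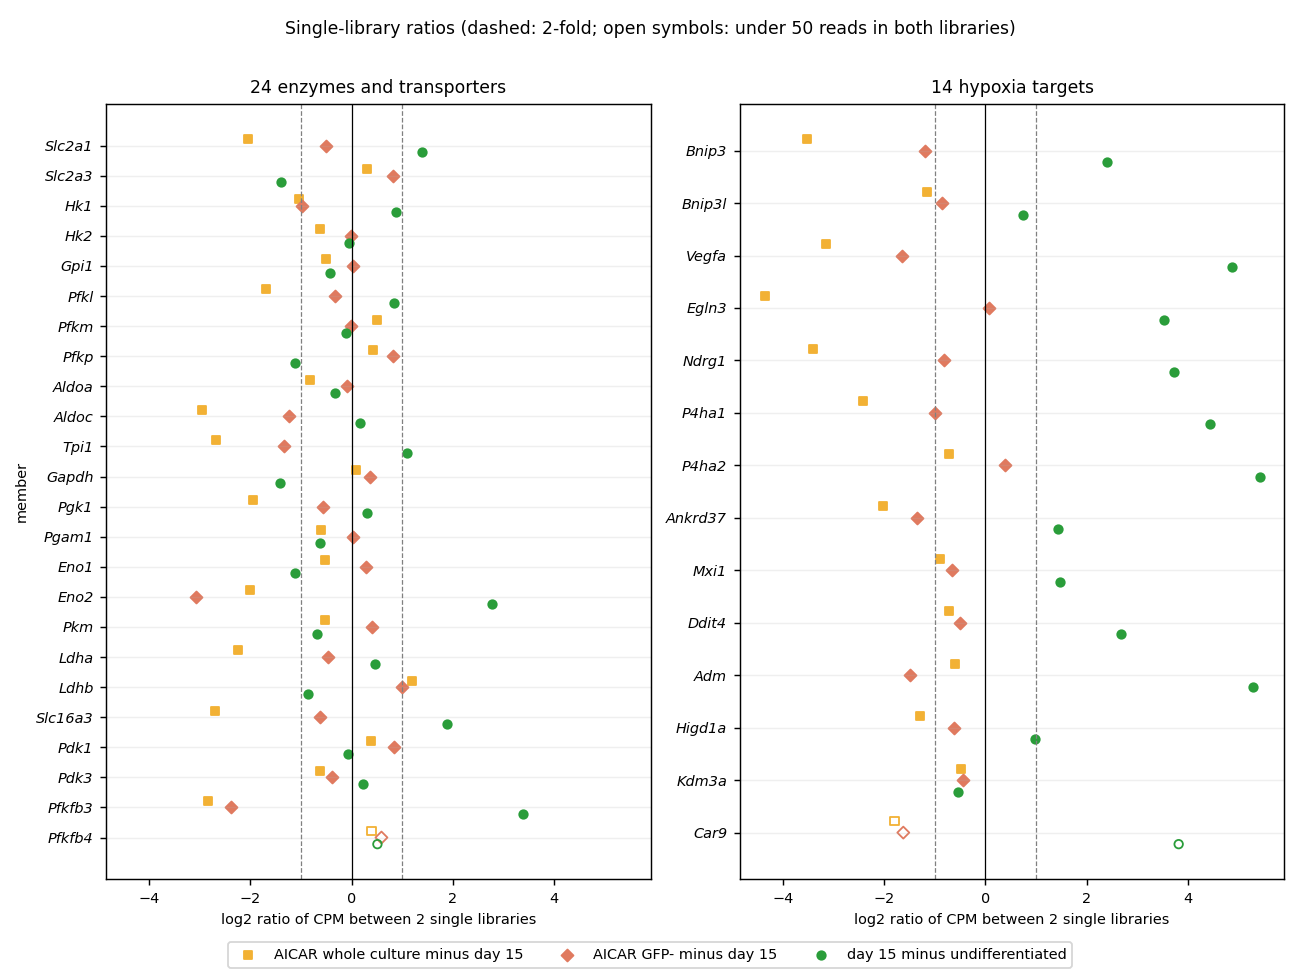
Log2 ratio of CPM between 2 single libraries for each member: whole AICAR culture minus day 15 (squares), AICAR GFP- minus day 15 (diamonds) and day 15 minus undifferentiated (circles); open symbols have under 50 reads in both libraries and dashed lines mark 2-fold. Most hypoxia targets lie right of 2-fold at day 15, with P4ha2 at 5.42, and left of 0 in the whole AICAR culture, with Egln3 at -4.36.

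The whole AICAR culture can also be set beside its fractions, although the labels do not say that the fractions came from that culture. The AICAR GFP- cells had 7 of 22 enzymes and transporters and 6 of 12 hypoxia targets more than 2-fold above the whole culture and 0 below it, beside 3.39% higher and 7.45% lower among 10115 genes. Egln3 was at 55.6 CPM in AICAR GFP- cells and 2.34 in the whole culture, Ndrg1 at 80.1 and 13.1 CPM, and Bnip3 at 73.1 and 14.4 CPM. Their log2 ratios were 4.41, 2.59 and 2.32. Slc16a3 was at 166 CPM in AICAR GFP- cells and 39.2 in the whole culture, Ldha at 767 and 224 CPM, and Aldoc at 10.9 and 3.16 CPM. Their log2 ratios were 2.08, 1.77 and 1.7.

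A culture made only of 2 fractions would lie between them. Within the first sequencing project, with AICAR GFP- cells and AICAR GFP+ replicate 3, the whole culture was below both in 28 of 34 members (82.4%), against 38.2% of 10530 genes. It was more than 2-fold below both in 8 members (23.5%), against 0.76% of genes. With AICAR GFP+ replicate 1 in place of replicate 3 the whole culture was below both in 13 of 34 members (38.2%, against 35.9% of genes), and with replicate 2 in 12 (35.3%, against 35.8%). The comparison thus turned on which AICAR GFP+ library was used. P4ha2 lay between, at 502 CPM in AICAR GFP- cells, 232 in the whole culture and 148 in AICAR GFP+ replicate 3. In this order, mesenchyme markers summed to 825, 8079 and 223 CPM and smooth muscle markers to 258, 1860 and 62.2. Those of visceral endoderm (858, 975 and 874) and stratified epithelium (3.8, 12 and 4.95) were also highest in the whole culture. Naive (1022, 1487 and 2697) and cardiac markers (36.8, 33.7 and 7.82) lay between. Whether the culture was a mixture of these fractions was not tested.

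AICAR GFP+ cells were then set against the 4 single libraries. These 4 comparisons share the same 3 AICAR GFP+ libraries, so their results are not independent. Tests are edgeR quasi-likelihood tests over all genes that passed its count filter, with Benjamini-Hochberg adjusted p under 0.05, and a lone library is assumed to vary like the replicated group. Fitted fold changes differ slightly from ratios of mean CPM. Here and below, genes said not to overlap between groups were named after the test on the same libraries. The share of all genes without overlap was not counted, so a lack of overlap adds no separate support.

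Against day 15, AICAR GFP+ cells were lower in most hypoxia targets and higher in a few enzyme isoforms. Of 14 hypoxia targets 0 rose and 10 fell, and of 24 enzymes and transporters 4 rose and 4 fell, beside 23.1% higher and 23.2% lower among 14857 genes. The median log2 fold change was -2.91 over the hypoxia targets and -0.51 over the enzymes and transporters, beside -0.03 over all genes. All 38 members were tested here, and a gene can pass the filter through 1 library, so those high at day 15 alone are among them. Cell type markers moved with this comparison, and all 10 naive markers rose. Of the others tested, 7 of 8 mesenchyme, 5 of 5 smooth muscle, 5 of 5 cardiac muscle and 4 of 4 stratified epithelium markers fell. Of the visceral endoderm markers, 1 of 9 fell. Their part in the levels of the members was not tested.

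Vegfa was at 8.06, 13.2 and 29.2 CPM in AICAR GFP+ replicates 1, 2 and 3, against 258 at day 15, a log2 fold change of -3.94 ± 0.62 (SE, n = 3 and 1, edgeR adjusted p = 0.00932). Adm was at 0.602, 0.857 and 2.31 CPM in AICAR GFP+ cells and 33.9 at day 15, a log2 fold change of -4.79 ± 0.66 (edgeR adjusted p = 0.00679). Ddit4, at 33.9, 33.2 and 32.7 CPM in AICAR GFP+ cells and 81.8 at day 15, fell by 1.29 on the log2 scale (SE 0.15, edgeR adjusted p = 0.00468). In each of the 3 genes all AICAR GFP+ libraries were below day 15. Bnip3l (-1.22, edgeR adjusted p = 0.00682), Egln3 (-3.91, 0.04), Ndrg1 (-3.47, 0.0172), Ankrd37, Mxi1, Higd1a and Car9 also fell. Bnip3, P4ha1, P4ha2 and Kdm3a did not pass the test, although the AICAR GFP+ values of P4ha1 were 11.6, 15.9 and 108 CPM against 566 at day 15.

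Ldhb was at 389, 253 and 336 CPM in AICAR GFP+ cells and 69.9 at day 15, so the groups did not overlap and it rose by 2.23 ± 0.3 on the log2 scale (edgeR adjusted p = 0.00639). Pdk1, the kinase that shuts off pyruvate dehydrogenase, rose by 1.25 (edgeR adjusted p = 0.0132), and so did Pfkp (1.51, adjusted p = 0.0155) and Pfkm (1.13, adjusted p = 0.0295), the muscle-type phosphofructokinase. Pfkfb3 was at 6.32, 5.87 and 12.4 CPM in AICAR GFP+ cells, against 92.2 at day 15, and fell by 3.5 on the log2 scale (SE 0.42, edgeR adjusted p = 0.00536). Eno2 (-3.2, edgeR adjusted p = 0.00472), Pfkfb4 (-2.22, adjusted p = 0.0286), a relative of Pfkfb3, and Hk1 (-0.99, adjusted p = 0.0448) were the other enzymes that fell. Without replicate 3, all 18 of these calls were kept, and the counts were 5 risen and 13 fallen of 24 enzymes and transporters and 0 and 13 of 14 hypoxia targets, beside 30.2% higher and 33% lower among 14879 genes. Without replicate 2 they dropped to 2 risen and 7 fallen members in all, beside 1311 higher and 1552 lower among 14431 genes.

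Against sorted day 2 cells, from which the cultures were begun, 3 of 24 enzymes and transporters rose, 0 fell, and 1 of 13 hypoxia targets fell, beside 3.18% higher and 2.6% lower among 13857 genes. Pfkp was at 249, 323 and 376 CPM in AICAR GFP+ cells, against 45.2 in sorted day 2 cells, and rose by 2.83 ± 0.32 on the log2 scale (edgeR adjusted p = 0.0223). Ldhb (1.91, edgeR adjusted p = 0.0365) and Pdk1 (1.32, adjusted p = 0.0427) also rose, and Ddit4 (-1.2, adjusted p = 0.0275) fell. No AICAR GFP+ library overlapped the sorted day 2 library in these 4 genes, which the test on the same libraries had picked. Without replicate 3 the counts were 6 risen and 14 fallen of 24, and 1 and 7 of 13, beside 15.3% higher and 14.9% lower among 13740 genes, and those 4 calls were kept. Without replicate 2 edgeR called 0 members and 0 genes, while 8 of 36 members and 2412 of 13326 genes had an unadjusted p under 0.05. Without replicate 1 it called 1 member, beside 149 genes higher and 120 lower among 13406.

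Against undifferentiated cells, 1 member, Ddit4, passed: it was at 33.9, 33.2 and 32.7 CPM in AICAR GFP+ cells and 12.4 in undifferentiated cells and rose by 1.4 ± 0.21 on the log2 scale (edgeR adjusted p = 0.0431). The other 12 hypoxia targets and all 24 enzymes and transporters tested did not pass, beside 2.43% higher and 2.62% lower among 13640 genes. With scaling by library size only, which moved the median of all genes from 0.07 to 0.25 log2 units, the genes called were 632 higher and 227 lower in place of 331 and 358. Pdk1 (1.15, edgeR adjusted p = 0.0536), Ldhb (1.33, adjusted p = 0.0583) and Gapdh (-0.79, adjusted p = 0.0643) came next. Without replicate 3, 3 enzymes and transporters rose and 14 fell of 24, and 1 hypoxia target rose and 5 fell of 13, beside 15.1% higher and 15.7% lower among 13495 genes. In that setting Ldha was lower by 2.69 ± 0.22 on the log2 scale and Tpi1 by 2.24 ± 0.14, while replicate 3 alone had 0 of 22 enzymes and transporters more than 2-fold lower than undifferentiated cells. Without replicate 1, and likewise without replicate 2, edgeR called 0 members, and 5 of 37 had an unadjusted p under 0.05. Of all genes, 2889 of 13179 without replicate 1 and 2518 of 13080 without replicate 2 had such a p. The genes called were 13 higher and 37 lower without replicate 1, and 0 without replicate 2.

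Against AICAR GFP- cells, 0 of 38 members and 0% of 13821 genes were called by edgeR in either direction. At an unadjusted p under 0.05, 8 of 38 members passed, a share near that of all genes (3022 of 13821). Of the 8, Pfkm and Ldhb were higher, and Vegfa, Egln3, Ndrg1, Ddit4, Adm and Pfkfb4 were lower. DESeq2 called 7 of these, all but Egln3. Vegfa was at 8.06, 13.2 and 29.2 CPM in AICAR GFP+ cells, against 82.4 in AICAR GFP- cells, and Ndrg1 at 5.35, 9.56 and 23.6 CPM against 80.1. Neither overlapped. Without replicate 3, 2 of 24 enzymes and transporters rose and 14 fell, and 8 of 13 hypoxia targets fell, beside 12.6% higher and 16% lower among 13829 genes. Egln3 (-5.64 ± 0.28, edgeR adjusted p = 1.36e-06), P4ha2 (-5.77 ± 0.3, adjusted p = 1.48e-06) and P4ha1 (-4.43 ± 0.19, adjusted p = 5.17e-07) then had the largest falls.

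Within the first sequencing project each of these comparisons is 1 library against 1, with no test. There AICAR GFP+ replicate 3 had 4 of 23 enzymes and transporters more than 2-fold higher than day 15 and 6 lower, and 0 of 13 hypoxia targets higher and 11 lower, beside 17.9% and 24.5% of genes. Against sorted day 2 cells it had 5 of 22 enzymes and transporters higher and 1 lower, and 5 of 11 hypoxia targets higher and 2 lower, beside 11.3% and 7.6%. Against undifferentiated cells 2 of 22 enzymes and transporters and 5 of 11 hypoxia targets were higher and 0 lower, beside 12.5% and 6.57%. Against AICAR GFP- cells 1 of 22 enzymes and transporters was higher and 0 were lower, and 0 of 12 hypoxia targets were higher and 6 lower, beside 3.98% and 6.58%. Day 15, AICAR GFP- and undifferentiated cells have libraries in the first project alone, so the comparisons of replicates 1 and 2 with them cross projects, and project and replicate cannot be told apart.

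The lines expanded from AICAR GFP+ cells in Lif+2i address which differences remain after return to maintenance medium. The 8 colony lines and the 2 sorted lines are both set against the same 3 AICAR GFP+ libraries.

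In the colony lines, 4 of 24 enzymes and transporters rose and 5 fell, and 1 of 12 hypoxia targets rose and 5 fell, beside 27.6% higher and 30.3% lower among 12225 genes. Adm and Car9 did not reach the filter. The median log2 fold change was -0.02 over enzymes and transporters and -0.79 over hypoxia targets, beside -0.03 over all genes. Without AICAR GFP+ replicate 3 these medians were 0.46, -0.09 and -0.02, and within the first sequencing project they were -0.41, -1.77 and -0.01. Visceral endoderm markers moved with this comparison: their sum was 2.33 to 16.8 CPM in the colony lines, with 2 to 4 of the 9 at 0 reads, against 127, 123 and 874 CPM in AICAR GFP+ cells. All 7 of those tested fell (5 of 7 without replicate 3), and their part in the levels of the members was not tested. Ldhb was at 57.8 to 101 CPM in the colony lines (median 71.5), against 389, 253 and 336 in AICAR GFP+ cells, and fell by 2.16 on the log2 scale (SE 0.15, n = 8 and 3, edgeR adjusted p = 1.08e-07). Pdk1 (-1.07, edgeR adjusted p = 4.34e-07), Pfkm (-0.76, adjusted p = 5.15e-05), Pfkp and Pdk3, a further pyruvate dehydrogenase kinase, also fell. No colony line reached an AICAR GFP+ library in any of these 5 genes, which the test on the same libraries had picked. Eno1 averaged 2351 ± 268 CPM in the colony lines and 1226 ± 445 in AICAR GFP+ cells (SD) and rose by 0.92 ± 0.17 on the log2 scale (SE, edgeR adjusted p = 0.000359). Hk2, the inducible hexokinase (0.95, edgeR adjusted p = 0.00059), Gapdh (0.47, adjusted p = 0.000871) and Pfkfb4 (1.51, adjusted p = 0.00201) were the others that rose.

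Ddit4 was at 7.56 to 16.6 CPM in the colony lines (median 9.21), against 33.9, 33.2 and 32.7 in AICAR GFP+ cells, and fell by 1.71 on the log2 scale (SE 0.19, edgeR adjusted p = 4.47e-06). Vegfa, at 1.03 to 5.25 CPM in the colony lines and 8.06 to 29.2 in AICAR GFP+ cells, fell by 2.46 (SE 0.39, edgeR adjusted p = 9.87e-05). These 2 did not overlap between the groups. P4ha2 (-3, edgeR adjusted p = 0.00214), P4ha1 (-1.59, adjusted p = 0.0158) and Mxi1, a Myc antagonist (-0.38, adjusted p = 0.0409), fell with groups that did overlap. Kdm3a rose by 0.6 (SE 0.09, edgeR adjusted p = 4.69e-05), and its 8 colony lines, at 338 CPM and more, all lay above the AICAR GFP+ libraries, at 254, 198 and 261 CPM. Without AICAR GFP+ replicate 3 the calls of P4ha2 (-0.47, edgeR adjusted p = 0.411), Mxi1 (-0.25, adjusted p = 0.188) and P4ha1 (0.12, adjusted p = 0.75) were lost, and those of Ddit4 (-1.71) and Vegfa (-1.81) remained.

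In the sorted lines, 3 of 24 enzymes and transporters rose and 4 fell, and 2 of 12 hypoxia targets rose and 1 fell, beside 17.5% higher and 19.1% lower among 12593 genes. The visceral endoderm markers summed to 6.27 and 4.51 CPM there, 4 of 7 tested fell, and their part was not tested. Ldhb was at 61.7 and 69.4 CPM in the sorted lines, below all 3 AICAR GFP+ libraries, and fell by 2.33 on the log2 scale (SE 0.2, n = 2 and 3, edgeR adjusted p = 0.00135). Pdk1 (-1.05, edgeR adjusted p = 0.0045), Pfkm (-0.98, adjusted p = 0.00708), Pfkp (-0.82, adjusted p = 0.0177) and Ddit4 (-1.81, adjusted p = 0.00118) also fell. Gapdh (0.53, edgeR adjusted p = 0.0171), Pfkfb4 (1.71, adjusted p = 0.0238), Eno1 (1, adjusted p = 0.0311), Bnip3l (0.5, adjusted p = 0.0244), the paralogue of Bnip3, and Kdm3a (0.49, adjusted p = 0.0341) rose. Without sorted line 1, and likewise without sorted line 2, that group holds 1 library, and most of these calls were lost. The median log2 fold change was 0.24 over enzymes and transporters and -0.33 over hypoxia targets, beside -0.05 over all genes. In the same order the medians were 0.2, -0.7 and -0.08 without sorted line 1, and 0.32, -0.28 and -0.09 without sorted line 2. Without AICAR GFP+ replicate 3 these medians were 0.59, 0.25 and -0.02, so that of the hypoxia targets changed sign, and within the first sequencing project they were -0.21, -1.43 and -0.03.

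Both comparisons depended on AICAR GFP+ replicate 3, as the plot of fold changes by replicate shows. Against replicates 1 and 2 alone, 13 of 24 enzymes and transporters rose and 6 fell in the colony lines, beside 27.7% higher and 29.7% lower among 12428 genes. For the sorted lines the counts were 15 risen and 5 fallen, beside 25.3% and 26.4% of 12589 genes. Within the first sequencing project, where replicate 3 is the lone AICAR GFP+ library, 3 rose and 8 fell in the colony lines, beside 21.2% and 24.2% of 12932 genes. Of the same 24, 4 rose and 13 fell in the sorted lines there, beside 30.2% and 31.7% of 12710 genes. Hypoxia targets without replicate 3 were 1 risen and 2 fallen of 12 in the colony lines and 4 risen and 1 fallen in the sorted lines. They were 1 risen and 9 fallen of 13 in the colony lines within that project, and 2 risen and 9 fallen of 13 in the sorted lines. In the colony lines 10 members kept their call and direction in all 3 settings: Eno1, Gapdh, Hk2 and Kdm3a rose, and Ldhb, Pdk1, Pfkm, Pfkp, Ddit4 and Vegfa fell. The sorted lines also had 10 such members: Bnip3l, Eno1, Gapdh, Kdm3a and Pfkfb4 rose, and Ldhb, Pdk1, Pfkm, Pfkp and Ddit4 fell. Pfkl, the liver-type phosphofructokinase, and Slc2a1, the general glucose transporter (GLUT1), were called in opposite directions by the 2 choices of replicates in the colony lines. In the sorted lines 8 members were, those 2 with Aldoa, Bnip3, Egln3, Gpi1, Pgk1 and Slc2a3. How many of all genes kept or turned a call over these settings was not counted, so these counts are not set against a share. The setting with all 3 replicates holds the libraries of the other 2, so the 3 settings are not independent. With scaling by library size only, the genes called in the colony lines were 2350 higher and 4853 lower, in place of 3369 and 3704. In the sorted lines they were 1455 higher and 3326 lower, in place of 2210 and 2407. That scaling moved the median of all genes from -0.03 to -0.18 and from -0.05 to -0.22 log2 units.

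**Figure D4:**
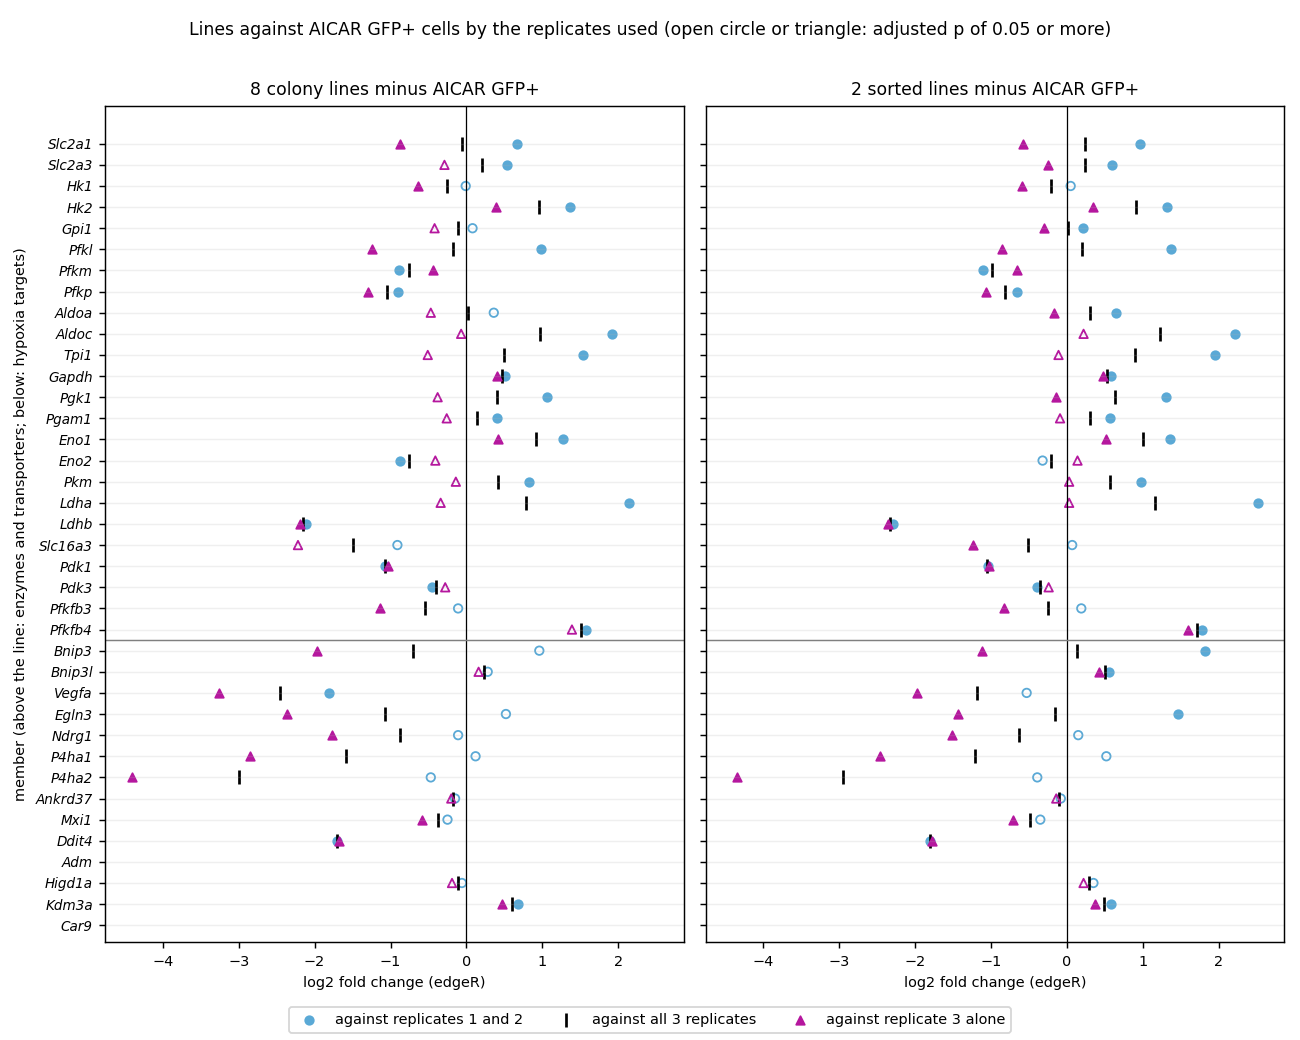
Log2 fold change of the 8 colony lines (left) and the 2 sorted lines (right) minus AICAR GFP+ cells for each member, by edgeR, against replicates 1 and 2 (circles), all 3 replicates (bars) and replicate 3 alone (triangles); open circles and triangles have an adjusted p of 0.05 or more. Ldhb, Pdk1 and Ddit4 have nearly the same value in all 3, while Ldha, Tpi1, P4ha1 and P4ha2 lie far apart; Adm and Car9 have no value.

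Colony lines were compared with undifferentiated cells, which grew in the same medium and had never been differentiated. By edgeR 0 of 36 members were called, beside 0.00812% higher and 0.0244% lower among 12314 genes. At an unadjusted p under 0.05, 9 members passed, beside 2385 of all genes, and all 9 were lower in the lines: Slc2a1, Slc2a3, Gpi1, Pfkp, Aldoc, Gapdh, Pgk1, Ldhb and Vegfa. DESeq2 called Slc2a3 (-0.53) and Ldhb (-0.79), both lower. Slc2a3 was at 486 to 673 CPM in the colony lines (median 525), below the 782 of undifferentiated cells in all 8. The median log2 fold change was -0.53 over enzymes and transporters and -0.47 over hypoxia targets, beside -0.01 over all genes. Without colony line 9, Slc2a3 was called lower (-0.6 ± 0.09, edgeR adjusted p = 0.026), beside 55 genes higher and 63 lower among 12260. An unadjusted p under 0.05 was then reached by 20 of 36 members, beside 2801 of all genes.

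Against the 2 sorted lines, 0 of 36 members and 0% of 11870 genes were called in either direction by edgeR. Vegfa alone of the members had an unadjusted p under 0.05 (-1.28 ± 0.38), beside 1092 of all genes, and DESeq2 called 0 members. Vegfa was at 1.03 to 5.25 CPM in the colony lines and 7.46 and 7.37 CPM in the sorted lines, so these did not overlap. Without colony line 9, 13 of 36 members had an unadjusted p under 0.05, beside 1546 of 11823 genes, and none was called.

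The colony lines differed among themselves in the members more than in most genes. The median SD of log2 CPM over the 8 lines was 0.241 over 28 members with enough reads, beside 0.152 over 8770 genes. Colony line 9 was the highest in 22 of the 28 members (78.6%), against 15.4% of genes. Slc16a3 was at 3.66, 31.6, 6.38, 5.89, 37, 6.03, 81.9 and 30.8 CPM in colony lines 1, 3, 4, 5, 6, 7, 9 and 10. Bnip3 was at 2.64, 17.4, 4.82, 5.74, 16.5, 5.34, 34.2 and 15.2 CPM in the same order, and Ldha at 409, 630, 358, 409, 662, 379, 872 and 620 CPM. In all 3 genes lines 1, 4, 5 and 7 were the 4 lowest. Those 4 were the lowest in 18 of the 28 members (64.3%), 16 of 21 enzymes and transporters (76.2%) and 2 of 7 hypoxia targets, against 14.6% of 8770 genes, among which this set of 4 was also the most frequent. Colony lines 4 and 5 also had the largest sums of smooth muscle markers, 87.7 and 151 CPM, against 2.72 to 16.3 in the other 6. Lines 1 and 7, low in the same members, had 16.3 and 4.82 CPM. Ldhb did not follow the pattern, at 63.4, 82.4, 77.5, 101, 57.8, 65.6, 84.6 and 60.1 CPM in lines 1, 3, 4, 5, 6, 7, 9 and 10.

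Isoforms of 1 step can be compared within a library by RPKM, which scales the reads by depth and by transcript length. The log2 ratio of Ldhb to Ldha was 2.05, 0.73 and -1.05 in AICAR GFP+ replicates 1, 2 and 3. It was -3.54 to -2.03 in the colony lines, -3.58 and -3.3 in the sorted lines, -2.46 in AICAR GFP- cells, -0.51 in the whole AICAR culture, -2.62 in undifferentiated cells, -3.92 at day 2 and -3.94 at day 15. All 3 AICAR GFP+ libraries stood above every line and above undifferentiated cells, and in replicates 1 and 2 the Ldhb level exceeded that of Ldha.

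The ratio of Slc2a3 to Slc2a1 was 1.5 to 1.88 in the colony lines, 1.36 and 1.5 in the sorted lines, 1.82, 1.78 and 1.09 in AICAR GFP+ cells, 0.2 in AICAR GFP- cells and 1.23 in the whole AICAR culture. It was 1.68 in undifferentiated cells, -1.23 at day 2, -1.03 in sorted day 2 cells and -1.11 at day 15. GLUT3 transcripts thus exceeded those of GLUT1 in each library except day 2, sorted day 2 and day 15. The ratio of Pfkp to Pfkl was 1.8, 2.08 and 0.13 in AICAR GFP+ cells, -0.17 to 0.54 in the colony lines and 0.12 in undifferentiated cells, against -3.09 at day 2 and -1.82 at day 15. The ratio of Hk2 to Hk1 was 1.14 to 1.89 in the colony lines, 0.16, -0.2 and 0.5 in AICAR GFP+ cells, 0.88 in undifferentiated cells, 2.54 at day 2 and -0.06 at day 15. Hk2 exceeded Hk1 most in the day 2 libraries. Gapdh, Eno1, Pgam1, Ldha, Tpi1, Pgk1, Aldoa and Pkm have processed pseudogenes that can take or lend reads, and the Eno1 entry is joined with Gm5506, so their absolute levels are uncertain.

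**Figure D5:**
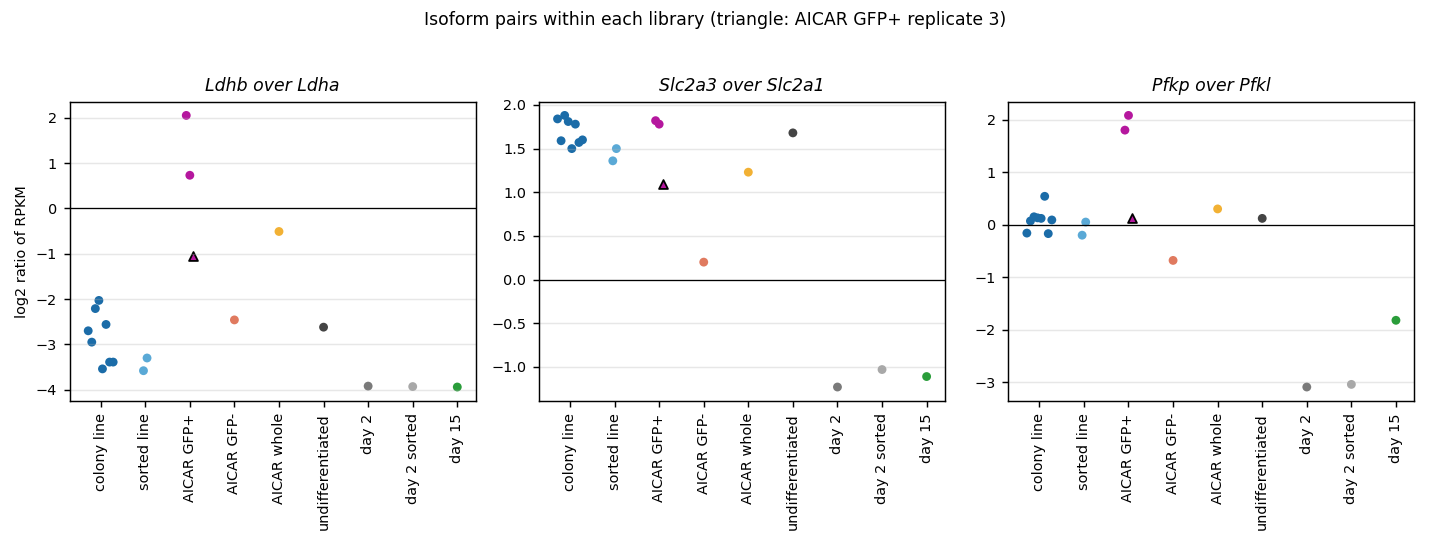
Log2 ratio of RPKM between 2 isoforms of a step within each library, by group: Ldhb over Ldha, Slc2a3 over Slc2a1 and Pfkp over Pfkl; each point is 1 library and the triangle is AICAR GFP+ replicate 3. AICAR GFP+ replicates 1 and 2 have the highest Ldhb over Ldha (2.05 and 0.73), and the day 2 libraries the lowest Pfkp over Pfkl, with -3.09 at day 2.

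Members with few reads or small ranges complete the account. Car9, a carbonic anhydrase, was at 3.47 CPM at day 15 and at most 0.951 CPM elsewhere. Ankrd37 was at 10.9 CPM at day 15 and 1.03 to 4.69 CPM in the other libraries, and Pfkfb4 at 0.651 to 5.87 CPM in all 19. The group means of Gpi1, Pgam1, Aldoa and Pdk3 spanned 1.92-, 2.33-, 2.27- and 1.6-fold. Higd1a, a mitochondrial protein, was at 23.8 to 51 CPM in the colony lines, 43.1, 29.2 and 39.2 in AICAR GFP+ cells, 34.4 in the whole AICAR culture, 42.6 in undifferentiated cells and 84.7 at day 15. The lowest mean of Higd1a was in the whole AICAR culture.

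Other genes of the same pathways were counted from lists of hypoxia factors and regulators, further hypoxia targets, further glucose metabolism genes and targets of the stress factor Atf4, which also induces Ddit4. In AICAR GFP+ cells against day 15, 3 of 26 further hypoxia targets rose and 14 fell, and 1 of 13 factors and regulators rose and 3 fell, beside 23.1% higher and 23.2% lower among all genes. Of 37 further glucose metabolism genes 10 rose and 4 fell, and of 10 Atf4 targets 2 rose and 4 fell. Without replicate 3 the further hypoxia targets were 4 risen and 22 fallen of 26, the factors 1 and 6 of 13, the glucose genes 13 and 8 of 35 and the Atf4 targets 2 and 4 of 10, beside 30.2% and 33%. Egln1, the main oxygen-sensing prolyl hydroxylase, averaged 18.8 CPM in AICAR GFP+ cells against 120 at day 15 (-2.68, edgeR adjusted p = 0.00878), and Hif3a averaged 1.25 against 13.1 CPM (-3.38, adjusted p = 0.00619). Txnip and Arrdc4, arrestin-like genes induced by glucose metabolites, averaged 267 and 42.5 CPM in AICAR GFP+ cells against 21 and 6.82 CPM at day 15. They rose by 3.68 and 2.64 on the log2 scale (edgeR adjusted p = 0.00531 and 0.00438).

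Against sorted day 2 cells, AICAR GFP+ cells had 1 of 13 factors and regulators risen, Epas1 (HIF-2 alpha), at 111 against 11.3 CPM (3.32, edgeR adjusted p = 0.0306), and 1 fallen, Hif3a. Of the further hypoxia targets 2 of 24 rose, of the further glucose genes 3 of 34 rose and 1 fell, and 0 of 9 Atf4 targets passed, beside 3.18% higher and 2.6% lower among all genes. Without replicate 3 the factors were 3 risen and 1 fallen, the further hypoxia targets 2 and 6, the glucose genes 6 and 5 and the Atf4 targets 1 and 3, beside 15.3% and 14.9%. Against undifferentiated cells edgeR called 0 factors and 0 further hypoxia targets, and without replicate 3 it called 4 factors higher and 1 lower of 13 and 2 further hypoxia targets higher and 6 lower of 23, beside 15.1% and 15.7%. Pdha1, a pyruvate dehydrogenase subunit encoded on the X chromosome, fell to 88.2 CPM, against 179 in undifferentiated cells (-1.04, edgeR adjusted p = 0.0489), and Asns, asparagine synthetase, to 165 against 561 CPM (-1.78, adjusted p = 0.0268). Against AICAR GFP- cells edgeR called 0 genes of these lists, and without replicate 3 it called 3 further hypoxia targets higher and 11 lower of 25 and 0 factors higher and 3 lower of 13, beside 12.6% and 16%. Between single libraries, 17 of 25 further hypoxia targets were more than 2-fold higher and 2 lower at day 15 than in undifferentiated cells. Beside these were 30.4% and 23% of all genes. In the whole AICAR culture 3 of 25 were higher than at day 15 and 16 lower, beside 10.1% and 17.2% of all genes. In AICAR GFP- cells 1 of 24 was higher than at day 15 and 13 were lower, beside 12.2% and 20.8%.

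In the colony lines against AICAR GFP+ cells, 3 of 13 factors and regulators rose and 7 fell, led by Cited2, a competitor for the coactivator of HIF, at 32.4 against 89.3 CPM (-1.48, edgeR adjusted p = 3.94e-06), and Epas1, at 41.6 against 111 CPM (-1.44, adjusted p = 5.52e-05). Of 22 further hypoxia targets 3 rose and 9 fell, of 32 further glucose genes 11 rose and 8 fell, and of 8 Atf4 targets 1 rose and 4 fell, beside 27.6% higher and 30.3% lower among all genes, so the shares of the glucose genes were near those of all genes. Without replicate 3 the factors were 3 risen and 6 fallen, the further hypoxia targets 5 and 5, the glucose genes 13 and 8 and the Atf4 targets 1 and 2, beside 27.7% and 29.7%. Pdha1 rose to 219 CPM, against 88.2 in AICAR GFP+ cells (1.3, edgeR adjusted p = 5.17e-08), and Arrdc4 (-1.49, adjusted p = 8.91e-07) and Pdk4 (-2.54, adjusted p = 2.3e-06) fell. In the sorted lines against AICAR GFP+ cells 2 factors and regulators rose and 5 fell of 13, 3 further hypoxia targets rose and 4 fell of 22, 9 further glucose genes rose and 5 fell of 32, and 1 Atf4 target rose and 3 fell of 9, beside 17.5% and 19.1% of all genes. Without replicate 3 the factors were 3 risen and 6 fallen, the further hypoxia targets 7 and 4, the glucose genes 13 and 6 and the Atf4 targets 2 and 3, beside 25.3% and 26.4%. Of these lists edgeR called 0 genes between colony lines and undifferentiated cells or sorted lines.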

How the data were processed

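The 19 libraries were made with a stranded mRNA kit after column extraction, per the labels' protocols. Per the submitters' processing notes, the processing named bcl2fastq, CASAVA 1.8.2, Trimmomatic 0.3.3, TopHat2 2.0.14, Bowtie2 2.2.5 and the build mm9. Per the file headers, the deposited read counts and RPKM values per gene came from rpkmforgenes with RefSeq genes, leaving out 3′ untranslated regions. RPKM, reads scaled by depth and transcript length, was taken as deposited by the authors and used only between isoforms. Whether counting used strand is not given in the sources used here.

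From the counts, edgeR 4.0.16 in R 4.3.3 gave TMM-scaled CPM and quasi-likelihood tests on the libraries compared, after a filter on low counts (minimum count 10, total 15), with adjusted p under 0.05 over all genes tested. Single libraries were compared by log2 ratios (prior count 2), with no test. The procedure was first checked on simulated counts with 1 fixed spread between replicates (dispersion). That spread was below the one estimated in every comparison with AICAR GFP+ cells (0.0266 to 0.0889), so the check does not speak for those tests. DESeq2 1.42.0, other scalings, no filter, all libraries in one fit and leaving out each replicate were the alternatives. Sample groups came from the labels. Reads in genes per library, 5771671 to 14233421, set the precision of low genes.

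The members and lists were chosen with earlier results of these data known. Values in every library are given for the 8 enzymes or transporters and 8 hypoxia targets with the largest ratio between group means among those with at least 20 CPM in 1 group. Per comparison, the 3 members with the smallest adjusted p, or the largest ratio past 2-fold, in each direction and class are named. Genes named from the other lists are among the 2 with the smallest adjusted p in a direction. Members outside that rule that are named where a call or a count is spelled out were chosen after their values were seen. Coordinates and sequences are of RefSeq on GRCm38.p6 and were not joined to mm9 positions.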

Additional observations from a re-analysis of the deposited data

Results flagged for a closer look

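In 8 of the 38 members, 1 colony line lay farther from the other 7 than Dixon's 95% limit allows. The limit was applied to CPM without a log scale. About 1 such flag in 20 groups is the chance rate for normally distributed values, which these CPM were not shown to be. Whether a line would be flagged on the log2 scale was not tested. In 7 of the 8 it was line 9, and the levels of these genes move together, so the 7 are not separate events.

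Colony line 9 had 81.9 CPM of Slc16a3, the lactate exporter, and the next line had 37. It had 34.2 CPM of Bnip3 (next 17.4), 27.7 of P4ha1 (next 17.7) and 14.7 of Ndrg1 (next 8.32). Among enzymes and transporters it had 11.3 CPM of Pfkfb3 (next 6.56), 22.3 of Aldoc (next 13.5) and 673 of Slc2a3. The Pfkfb3 value rests on 73 reads and the Ndrg1 value on 95.

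Colony line 7 had 291 CPM of Hk2, the inducible hexokinase, and the next line had 245. It was not among the high lines for the other flagged genes.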

How the results depend on the processing

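Of 294 member values in tested comparisons 48 were called. Of these 21 kept their call in all alternatives, 27 lost it in at least 1, and 1 turned round. The same was not counted over all genes. RLE scaling lost 0 calls, no filter 1, DESeq2 3 and library size only 4. Depth limits Car9, Adm, Ankrd37 and Pfkfb4, and the cause of each change was not tested.

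Leaving out 1 replicate at a time, members called in AICAR GFP+ cells against day 15 were 2 to 5 higher and 7 to 26 lower, beside 1311 to 4500 and 1552 to 4913 of all genes. Against sorted day 2 cells they were 0 to 7 higher and 0 to 21 lower, beside 0 to 2108 and 0 to 2044 of all genes. Against undifferentiated cells they were 0 to 4 and 0 to 19, beside 0 to 2037 and 0 to 2121. Against AICAR GFP- cells they were 0 to 2 and 0 to 22, beside 0 to 1744 and 0 to 2209. In the colony lines they were 5 to 14 higher and 8 to 13 lower than AICAR GFP+ cells, beside 3011 to 3440 and 3419 to 3700 of all genes. They were 0 to 1 lower than undifferentiated cells, beside 0 to 63 of all genes. In the sorted lines, leaving out 1 AICAR GFP+ replicate, they were 2 to 19 higher and 5 to 6 lower than AICAR GFP+ cells. Beside these were 1683 to 3191 and 1817 to 3323 of all genes. Leaving out a sorted line leaves 1 library in that group, and most calls were then lost. The log2 fold changes that turned round did so without AICAR GFP+ replicate 3. In AICAR GFP+ cells they ranged from -0.9 to 1.29 for P4ha1 and from -1.83 to 1.26 for P4ha2 against sorted day 2 cells, and from -0.95 to 1.24 for P4ha1 against undifferentiated cells. In the colony lines against AICAR GFP+ cells they ranged from -0.32 to 0.66 for Slc2a1, from -0.53 to 0.98 for Pfkl and from -2.04 to 0.12 for P4ha1, the 1 called value that turned. In the sorted lines they ranged from -0.64 to 1.46 for Egln3.

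Within the first sequencing project 17 members were lower in the colony lines and 22 in the sorted lines than AICAR GFP+ cells. There the sorted lines turned to -0.58 for Slc2a1, -0.25 for Slc2a3, -0.3 for Gpi1, -0.85 for Pfkl, -0.17 for Aldoa, -0.14 for Pgk1 and -1.12 for Bnip3. The comparisons of AICAR GFP+ cells with 1 library have no test there.

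With all 19 libraries in one fit, AICAR GFP+ cells had 23 members lower than day 15, 7 higher and 9 lower than sorted day 2 cells, 4 higher and 7 lower than undifferentiated cells, and 3 higher and 9 lower than AICAR GFP- cells. Beside these, in the same order, were 5084 genes lower, 2060 higher and 2176 lower, 2131 and 2173, and 1815 and 1733, of 15041 tested. With DESeq2 there were 6 members higher than sorted day 2 cells, 4 higher and 1 lower than undifferentiated cells, and 2 higher and 5 lower than AICAR GFP- cells, and 2 lower in the colony lines than in undifferentiated cells. Beside these, in the same order, were 1093 of 13857 genes, 1063 and 1039 of 13640, 629 and 581 of 13821, and 88 of 12314. With no filter 5 members were higher than sorted day 2 cells (beside 630 of 18440 genes) and 3 than undifferentiated cells (523 of 18251). With library size only 3 members were higher than undifferentiated cells (632 of 13640 genes) and 1 in the sorted lines than AICAR GFP+ cells (1455 of 12593). Between single libraries, both RLE scaling and library size only gave 1 member lower at day 15 than in sorted day 2 cells, 2 lower than in undifferentiated cells, and 0 higher in AICAR GFP- cells than at day 15. Beside these, in the same order, were 2183, 2324 and 1236 genes with RLE scaling and 2070, 2048 and 1294 with library size only, of 11554, 11502 and 11352. A minimum of 10 reads gave 1 member lower in AICAR GFP- cells than in the whole AICAR culture, beside 1332 of 13113 genes.

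Sorted lines and AICAR GFP+ cells share the numbers 1 and 2, which the labels do not say pair them, and the deviations correlate at 0.03 over 15041 genes. With a replicate block on these 4 libraries 21 members were higher and 6 lower, beside 19 and 6 without the block. Of 12589 genes, 3347 were higher and 3457 lower with the block, and 3191 and 3323 without it. Egln3 turned to 1.47 with the block and 1.46 without it, and P4ha1 to 0.53 with the block.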
